A study of Mus musculus with 9 samples.

Results

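The genes described here encode the structural proteins of the sarcomere other than the myosin heavy chains and the troponins. They comprise actins, tropomyosins, nebulin and leiomodin of the thin filament, myosin light chains, the thick-filament myosin-binding proteins and titin, and proteins of the M-band and the Z-disc. The 2 muscle creatine kinases were counted with them. Members were taken by gene symbol, as the array probes named for 1 of 30 listed genes. The 46 of these probes that passed the signal filter are described here. All 30 genes passed the signal filter, among 21995 genes tested.

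The cells were C2C12, a line of mouse myoblasts that stop dividing and fuse into myotubes once growth serum is removed. The groups were cells given vehicle, 1 nM or 10 nM of 1,25 (OH)2-vitamine D3 (calcitriol, the hormonal form of vitamin D), each for 72 h and each with 3 biological replicates. All groups are the same unmodified line. The series title calls the cells murine myotubes, and the sources used here do not say whether they had fused before calcitriol was added. Each of the 9 RNA samples was labelled with Cy3 and hybridised to its own array. A level is the log2 of a probe's signal minus the log2 of that array's 75th percentile of signal, so that 0 is the 75th percentile.

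A sarcomere is the repeating unit of the contractile fibril. Thin filaments of actin, tropomyosin and nebulin are anchored in the Z-disc by alpha-actinin, and thick filaments of myosin are held together at the M-band by the myomesins. Titin runs from the Z-disc to the M-band. Many of these proteins come as fast-fibre and slow-fibre forms from separate genes, and myoblasts switch the set on as they leave the cell cycle and fuse.

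Promoter windows are shown for the 3 genes with the highest called changes at 1 nM, Myl2, Myl3 and Mybpc1, and for Tpm3, whose probes moved in opposite directions. RefSeq (GRCm38.p6) gave windows for 23 of the 30 genes, 26 windows in all, of which the 250 bases before the annotated start are used. Capitals mark matches on either strand to the E-box CANNTG, to MCAT (CATTCC), to the TATA box TATAAA and to the CArG box. No match shown overlaps another.
Myl2, first listed start, chr5:122092474-122092723, plus strand: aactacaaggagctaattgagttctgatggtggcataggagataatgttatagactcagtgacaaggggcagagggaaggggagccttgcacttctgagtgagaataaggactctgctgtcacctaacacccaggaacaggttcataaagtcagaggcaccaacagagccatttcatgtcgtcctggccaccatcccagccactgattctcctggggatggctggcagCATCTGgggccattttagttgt
Myl2, second listed start, chr5:122092939-122093188, plus strand: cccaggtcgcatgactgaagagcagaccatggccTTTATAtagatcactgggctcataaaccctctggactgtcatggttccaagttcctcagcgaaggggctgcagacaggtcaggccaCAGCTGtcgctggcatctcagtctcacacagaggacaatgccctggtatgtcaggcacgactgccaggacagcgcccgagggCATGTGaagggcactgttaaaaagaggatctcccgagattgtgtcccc
Myl3, chr9:110763428-110763677, plus strand: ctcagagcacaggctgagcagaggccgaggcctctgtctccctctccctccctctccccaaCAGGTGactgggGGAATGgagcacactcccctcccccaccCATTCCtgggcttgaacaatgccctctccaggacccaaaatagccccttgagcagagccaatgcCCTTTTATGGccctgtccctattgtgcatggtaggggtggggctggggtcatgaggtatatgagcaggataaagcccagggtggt
Mybpc1, chr10:88605153-88605402, minus strand: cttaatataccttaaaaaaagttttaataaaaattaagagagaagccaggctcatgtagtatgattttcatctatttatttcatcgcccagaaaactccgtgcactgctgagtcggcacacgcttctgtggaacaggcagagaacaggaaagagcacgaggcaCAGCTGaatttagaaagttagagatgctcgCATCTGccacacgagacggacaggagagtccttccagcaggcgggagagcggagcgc
Tpm3, first listed start, chr3:90072401-90072650, plus strand: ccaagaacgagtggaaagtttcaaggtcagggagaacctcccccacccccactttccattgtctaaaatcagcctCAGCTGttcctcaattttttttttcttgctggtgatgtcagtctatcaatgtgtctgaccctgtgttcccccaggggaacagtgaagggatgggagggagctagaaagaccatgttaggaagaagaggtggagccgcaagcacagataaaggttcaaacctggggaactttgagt
Tpm3, second listed start, chr3:90079271-90079520, plus strand: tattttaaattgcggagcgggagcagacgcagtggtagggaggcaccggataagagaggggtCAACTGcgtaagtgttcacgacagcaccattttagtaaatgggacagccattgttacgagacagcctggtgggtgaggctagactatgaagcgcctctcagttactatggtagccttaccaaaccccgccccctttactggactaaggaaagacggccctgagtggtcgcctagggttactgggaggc

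The E-box, the letters that myogenic basic helix-loop-helix factors bind, stood in 22 of the 26 windows (84.6%) and in 66.2% of all 32851 windows of the same length. The CArG box, bound by serum response factor, stood in 6 windows (23.1%, against 1.47% of all), those of Acta1, Actc1, Myl3 and Myom1 and both of Ldb3. MCAT, bound by TEAD factors, stood in 6 windows (23.1%, against 12.6%), and Myl3 held it at 2 places, 177 and 149 bases before its start. The MEF2 site stood in those of Ttn, Myom3 and Myoz2 (11.5%, against 2.92%). The TATA box stood in 4 windows (15.4%, against 12.4%). The direct-repeat (DR3) vitamin D element was found in 0 of 26 windows and in 0.0396% of all. These are matches of letters in a short window.

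Probe stretches are shown for Tpm1 and Tpm3, whose probes were called in opposite directions, and for Myl1, whose probes are listed for different numbers of transcripts. Probes are numbered in the direction of transcription. Each is the first 30 of a probe's 60 bases as the array files give it, with the probe's mm9 position. Capitals mark bases shared between 2 probes of 1 gene, which occurred only for Tpm1 probes 2 and 3 (46 bases). Which exon or untranslated region a probe lies in was not analysed here.
Tpm1 probe 1, chr9:66880274-66880333, minus strand: ggaagaacagttaagaataatggatcagac
Tpm1 probe 2, chr9:66875796-66875855, minus strand: ccttagggccaggcACAGACTGCTTTCTAT
Tpm1 probe 3, chr9:66875782-66875841, minus strand: ACAGACTGCTTTCTATTGTACAGAAGCAAT
Tpm1 probe 4, chr9:66872131-66872190, minus strand: gagggctgcctgcctggcccgtgtttccct
Tpm1 probe 5, chr9:66871166-66871225, minus strand: gaaaaccttagtatgcaccagatgctggat
Tpm3 probe 1, chr3:89877669-89877728, plus strand: aagaagctgaaagggacagaggatgagctg
Tpm3 probe 2, chr3:89892985-89893044, plus strand: ggaggaggagctgaagaatgtcaccaacaa
Tpm3 probe 3, chr3:89904428-89904487, plus strand: tgccatctcattgtgctttgtatcagtcag
Myl1 probe 1, chr1:66976853-66981100, minus strand: agattgccgacttcaaggaggcatttctcc
Myl1 probe 2, chr1:66970948-66971007, minus strand: ttataagccttgagttttcatgacaaacat

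The array of vehicle replicate 3 stood apart: 6124 of its spots (13.8%) were marked as non-uniform, against 8 to 56 on the other arrays, and its median signal was 660 against 216 to 315. Within-group correlations of arrays ran from 0.9937 to 0.9972 at 1 nM, from 0.9917 to 0.9938 at 10 nM and from 0.9685 to 0.9946 for vehicle. The treatment was checked by Cyp24a1, the enzyme that breaks down calcitriol, whose level averaged -3.90 ± 0.15 at 1 nM and 0.94 ± 0.02 at 10 nM, against -5.19 ± 0.47 with vehicle (SD, n = 3 each). Vdr, the receptor, averaged 2.12 ± 0.06 and 3.64 ± 0.05, against 2.03 ± 0.07. Of 10 myoblast and myotube markers, 9 were above background on every array, among them the muscle regulatory factors Myod1 and Myog. The other, the regulatory factor Myf5, was above background on all 3 vehicle arrays and on 1 of 3 at each dose.

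Sarcomere genes were mostly higher after calcitriol, by modest amounts, and nearly alike at both doses. At 1 nM 20 of the 30 rose and 1, Tpm3, fell (limma, Benjamini-Hochberg adjusted p under 0.05). Among all genes tested, 11.8% were called higher and 11.8% lower. At 10 nM 22 rose and Tpm3 again fell, against 15.4% and 14.7% of all genes. The median log2 change of the members was 0.51 at 1 nM (range -0.46 to 1.59) and 0.48 at 10 nM (range -0.38 to 1.58), and that of all genes was -0.09 and -0.11. Groups did not overlap, with treated above vehicle, for 23 members at 1 nM and 25 at 10 nM, against 19.8% and 21.8% of all genes.

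The genes called higher at both doses numbered 19: Actc1, Actn2, Actn3, Ckm, Ldb3, Lmod2, Mybpc1, Mybph, Myl2, Myl3, Myom1, Myom2, Myom3, Myot, Myoz2, Neb, Tcap, Tpm2 and Ttn. Xirp1 was called only at 1 nM, and Ckmt2, Des and Myl1 only at 10 nM. Acta1, Mybpc2, Myl4, Mylpf, Myoz1 and Tpm1 passed at neither dose. Both doses were set against the same 3 vehicle samples. In RNA from whole cultures, a change in the number of cells of a type and a change in RNA per cell cannot be told apart.

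Arrays shared slides, except that of 10 nM replicate 3, alone on slide 3, so the counts were also taken by slide. A slide block takes up that lone array, so the 10 nM values under it rest on 2 treated arrays. With the slide as a block 19 members were higher at 1 nM and 16 at 10 nM, against 10.1% and 12.9% of all genes, and 1 was lower at each, against 11.8% and 12.6%. The members' medians were then 0.52 and 0.47, against -0.07 and -0.04 for all genes. Within slide 1, with 1 array of each dose and 2 of vehicle, 2 and 6 members passed higher, against 2.81% and 5.46% of all genes, and 0 lower, against 4.39% and 6.25%. The medians were 0.42 and 0.46, against 0 and 0.09. On slide 2, whose single vehicle array is replicate 3, 25 and 21 passed higher, against 13.7% and 13.8% of all genes, and 1 and 0 lower, against 37.8% and 35.6%. The medians were 0.60 and 0.53, against -0.15 and -0.15. Each within-slide fit assumes that a group with a lone array varies like the other groups. Without vehicle replicate 3 on all slides 20 and 18 members were higher, against 13.3% and 17.2%, and 1 lower at each dose, against 12% and 15.3%, with medians of 0.46 and 0.44.

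**Figure D1:**
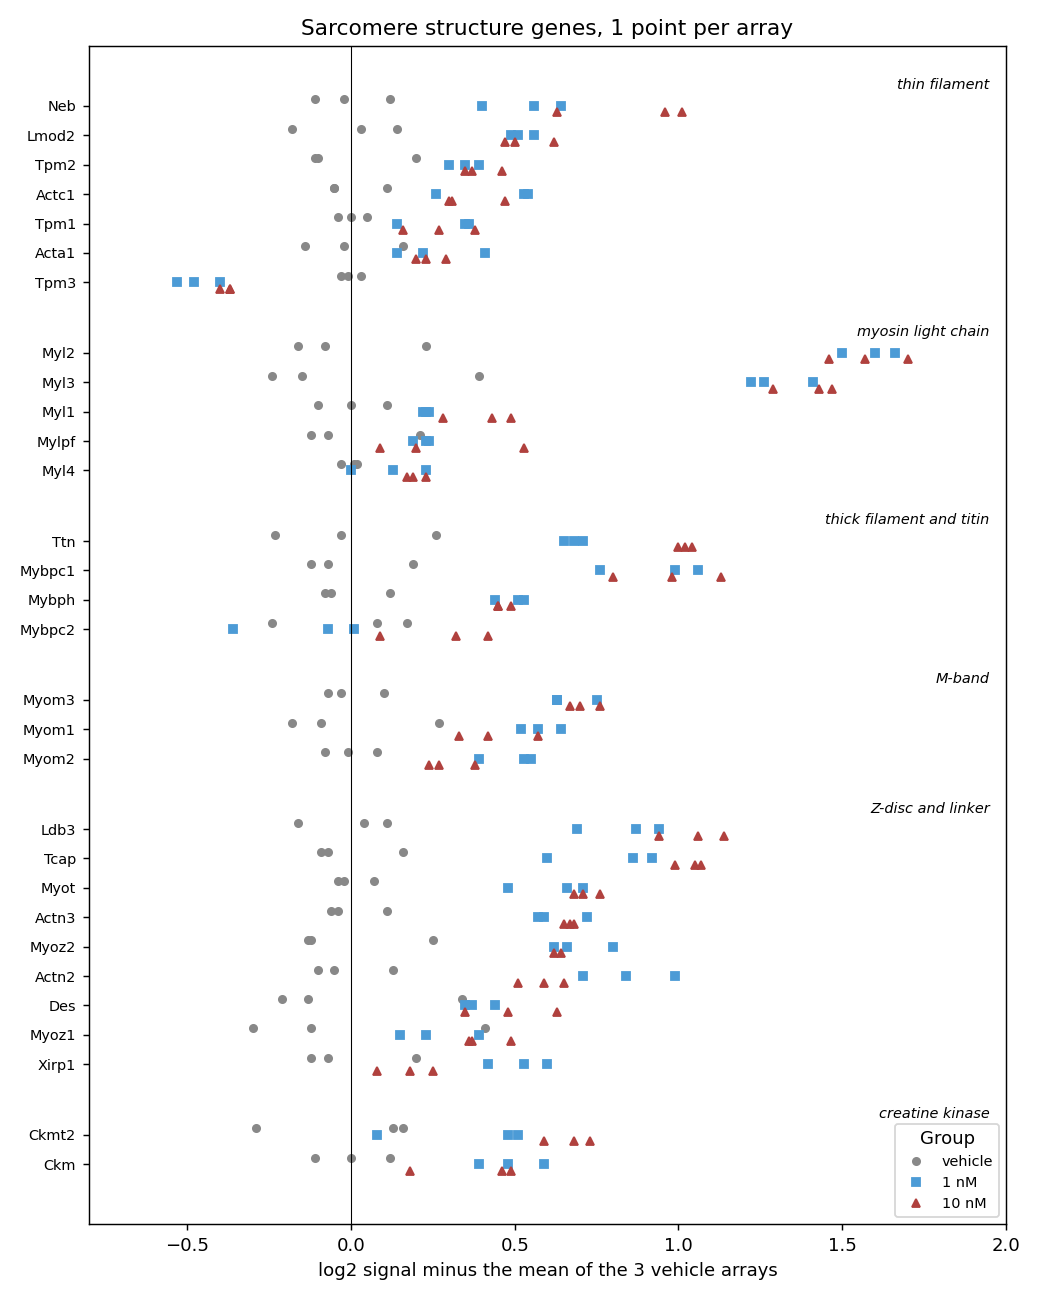
Log2 signal of each of the 30 genes on each array, minus the mean of its vehicle arrays, grouped by the protein's place in the sarcomere. Each point is 1 array (vehicle grey circles, 1 nM blue squares, 10 nM red triangles). Myl2 and Myl3 lie farthest to the right and Tpm3 is the gene whose treated arrays lie left of all vehicle arrays.

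Among the 5 myosin light chains, which clasp the neck of the myosin head, the slow and ventricular pair Myl2 and Myl3 rose at both doses, the fast Myl1 at 10 nM, and Mylpf and Myl4 passed at neither. Myl2, the slow regulatory light chain, had levels of 0.27, 0.66 and 0.35 with vehicle, 1.93, 2.03 and 2.09 at 1 nM, and 2.13, 2.0 and 1.89 at 10 nM. Every treated array lay above every vehicle array, and the 2 doses overlapped. The rise was 1.59 on the log2 scale at 1 nM (3.01-fold, SE 0.12 log2, adjusted p = 5.69e-05) and 1.58 at 10 nM (2.99-fold, SE 0.12 log2, adjusted p = 4e-05).

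Myl3, the slow alkali light chain, had levels of -2.09, -2.0 and -1.46 with vehicle, -0.63, -0.44 and -0.59 at 1 nM, and -0.42, -0.38 and -0.56 at 10 nM. Vehicle replicate 3 was the highest of the vehicle arrays and still lay below all treated ones. Myl3 rose by 1.30 on the log2 scale at 1 nM (2.45-fold, SE 0.16 log2, adjusted p = 0.000921) and by 1.39 at 10 nM (2.62-fold, SE 0.16 log2, adjusted p = 0.00046). Without vehicle replicate 3 the log2 changes were 1.49 and 1.59.

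The fast regulatory light chain Mylpf averaged -0.37 ± 0.03 at 1 nM and -0.32 ± 0.23 at 10 nM, against -0.59 ± 0.18 with vehicle (SD, n = 3), and passed at neither dose (adjusted p = 0.303 and 0.176). Myl4, the embryonic and atrial alkali light chain, averaged 7.45 ± 0.12 and 7.53 ± 0.03, against 7.33 ± 0.03, and did not pass either (adjusted p = 0.299 and 0.0838). Myl1, the fast alkali light chain, averaged 7.38 ± 0.01 at 1 nM, 7.55 ± 0.11 at 10 nM and 7.15 ± 0.10 with vehicle. It passed only at 10 nM (log2 0.40, adjusted p = 0.00764, and log2 0.23, adjusted p = 0.0844 at 1 nM), and the difference between its 2 doses was 0.17 (95% interval -0.02 to 0.36).

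Among the thick-filament genes, titin and the slow myosin-binding protein C rose at both doses. Ttn, the giant protein that acts as the spring of the sarcomere, had levels of 4.25, 3.96 and 3.76 with vehicle, 4.67, 4.64 and 4.70 at 1 nM, and 5.01, 4.99 and 5.03 at 10 nM. The 3 groups did not overlap and stood in order of dose. Ttn rose by 0.68 on the log2 scale at 1 nM (1.60-fold, SE 0.12 log2, adjusted p = 0.00433) and by 1.02 at 10 nM (2.03-fold, SE 0.12 log2, adjusted p = 0.000405).

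Mybpc1, the slow form of myosin-binding protein C, rose by 0.94 on the log2 scale at 1 nM (1.92-fold, SE 0.13 log2, adjusted p = 0.00152) and by 0.97 at 10 nM (1.96-fold, SE 0.13 log2, adjusted p = 0.000924). Mybph, a shorter relative, averaged 5.29 ± 0.05 at 1 nM and 5.26 ± 0.03 at 10 nM, against 4.80 ± 0.11 with vehicle, and rose 1.41-fold and 1.38-fold (adjusted p = 0.00194 and 0.00199). Mybpc2, the fast form, did not pass: its log2 changes were -0.14 at 1 nM (adjusted p = 0.533) and 0.28 at 10 nM (adjusted p = 0.212).

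All 3 myomesin genes, whose products cross-link thick filaments at the M-band, rose at both doses. Myom3 had levels of 3.32, 3.45 and 3.28 with vehicle, 3.98, 3.98 and 4.10 at 1 nM, and 4.02, 4.05 and 4.11 at 10 nM. Treated arrays of both doses lay above all vehicle arrays and overlapped each other. The rise was 1.59-fold (log2 0.67, SE 0.07, adjusted p = 0.000402) and 1.64-fold (log2 0.71, SE 0.07, adjusted p = 0.000211). Myom1 rose 1.49-fold at 1 nM and 1.36-fold at 10 nM (adjusted p = 0.0138 and 0.0337), and Myom2, which encodes M-protein of fast fibres, 1.40-fold and 1.23-fold (adjusted p = 0.00331 and 0.0256).

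Of 9 Z-disc and linker genes, 7 rose at each dose and none fell by limma (8 higher and 0 lower at unadjusted p under 0.05). Among all genes 11.8% were called higher and 11.8% lower at 1 nM, and 15.4% and 14.7% at 10 nM. The median log2 changes of the 9 genes were 0.62 and 0.63. Ldb3 (also called ZASP or Cypher), a scaffold that binds alpha-actinin, had levels of 1.23, 1.30 and 1.03 with vehicle, 1.88, 2.13 and 2.06 at 1 nM, and 2.13, 2.33 and 2.25 at 10 nM. The vehicle arrays lay below all others, while the doses met at 2.13. Ldb3 rose by 0.84 on the log2 scale at 1 nM (1.79-fold, SE 0.10 log2, adjusted p = 0.000853) and by 1.05 at 10 nM (2.07-fold, SE 0.10 log2, adjusted p = 0.000182).

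Tcap (telethonin), which caps the end of titin in the Z-disc, had levels of 3.00, 3.23 and 2.98 with vehicle, 3.67, 3.99 and 3.93 at 1 nM, and 4.06, 4.14 and 4.12 at 10 nM. As for Ttn, the 3 groups did not overlap and stood in order of dose. The log2 difference of 10 nM over 1 nM was 0.24 (95% interval -0.01 to 0.5) and did not pass (limma adjusted p = 0.443). Tcap rose 1.74-fold (log2 0.80, SE 0.11, adjusted p = 0.00141) and 2.06-fold (log2 1.04, SE 0.11, adjusted p = 0.000248).

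Myot (myotilin), which binds alpha-actinin and cross-links actin, had levels of 1.24, 1.33 and 1.22 with vehicle, 1.74, 1.92 and 1.97 at 1 nM, and 1.94, 2.02 and 1.97 at 10 nM. The doses overlapped, both above all vehicle arrays. It rose 1.53-fold (log2 0.61, SE 0.08, adjusted p = 0.00114) and 1.64-fold (log2 0.72, SE 0.08, adjusted p = 0.000374).

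The alpha-actinins, the main cross-linkers of the Z-disc, rose in both forms. Actn3, the fast-fibre form, had levels of 3.50, 3.48 and 3.65 with vehicle, 4.13, 4.11 and 4.26 at 1 nM, and 4.21, 4.19 and 4.22 at 10 nM. Its treated arrays all lay above the vehicle arrays and overlapped each other. It rose 1.54-fold (log2 0.62, SE 0.07, adjusted p = 0.000626) and 1.59-fold (log2 0.67, SE 0.07, adjusted p = 0.000318).

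Actn2, the form of all striated fibres, had levels of 0.82, 1.05 and 0.87 with vehicle, 1.63, 1.76 and 1.91 at 1 nM, and 1.43, 1.51 and 1.57 at 10 nM. Here the 10 nM arrays lay between those of vehicle and 1 nM, with no overlap. Actn2 rose by 0.85 on the log2 scale at 1 nM (1.80-fold, SE 0.10 log2, adjusted p = 0.000638) and by 0.59 at 10 nM (1.5-fold, SE 0.10 log2, adjusted p = 0.00315). A second Actn2 probe, read far lower at levels of -5.53 to -5.05 and not used for the gene, did not pass (log2 -0.17 and -0.05).

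The calsarcins tie alpha-actinin to calcineurin. Myoz2, the slow and cardiac form, rose 1.62-fold at 1 nM and 1.55-fold at 10 nM (adjusted p = 0.00703 and 0.0126). Its spot on the array of 10 nM replicate 1 was marked as non-uniform and dropped, so that value rests on 2 arrays. Myoz1, the fast form, had levels of -2.49, -2.31 and -1.78 with vehicle, -2.04, -1.80 and -1.96 at 1 nM, and -1.70, -1.82 and -1.83 at 10 nM, and did not pass (adjusted p = 0.33 and 0.122). Vehicle replicate 3 was its high vehicle value. Without that array Myoz1 passed at 1 nM (log2 0.47, adjusted p = 0.0153) and at 10 nM (log2 0.62, adjusted p = 0.00368).

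Des, which encodes desmin, the intermediate filament that links Z-discs, passed at 10 nM (log2 0.49, SE 0.15, adjusted p = 0.0437) and not at 1 nM (log2 0.39, adjusted p = 0.111). Xirp1, an actin-binding protein of muscle attachment sites, passed at 1 nM (log2 0.52, SE 0.10, adjusted p = 0.00913) and not at 10 nM (log2 0.17, adjusted p = 0.252). Its levels were 0.92 ± 0.09 at 1 nM and 0.57 ± 0.08 at 10 nM, against 0.40 ± 0.17 with vehicle (SD, n = 3).

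Of 7 thin-filament genes 4 rose and 1 fell at each dose, with median log2 changes of 0.34 and 0.36. The shares of all genes were 11.8% higher and 11.8% lower at 1 nM, and 15.4% and 14.7% at 10 nM. Neb, which encodes nebulin along the thin filament, rose by 0.54 on the log2 scale at 1 nM (1.45-fold, SE 0.12 log2, adjusted p = 0.0178) and by 0.87 at 10 nM (1.82-fold, SE 0.12 log2, adjusted p = 0.00137). Lmod2, which lengthens thin filaments at their pointed ends, rose 1.44-fold and 1.45-fold (adjusted p = 0.00579 and 0.0039), and lost both calls under quantile normalization, in the submitters' table and with array median scaling. Actc1, the cardiac alpha-actin that embryonic skeletal muscle also makes, rose 1.36-fold and 1.28-fold (adjusted p = 0.0177 and 0.0329).

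Acta1, the adult skeletal alpha-actin, had levels of 6.63 ± 0.14 at 1 nM and 6.61 ± 0.05 at 10 nM, against 6.37 ± 0.15 with vehicle (SD, n = 3), and did not pass (adjusted p = 0.112 and 0.117). Tpm2, the beta-tropomyosin gene, rose 1.27-fold and 1.31-fold (adjusted p = 0.0358 and 0.0166). The creatine kinases regenerate ATP at the M-band and in mitochondria. Ckm rose 1.40-fold at 1 nM and 1.29-fold at 10 nM (adjusted p = 0.0158 and 0.0354), and Ckmt2 averaged -2.84 ± 0.24 and -2.53 ± 0.07, against -3.19 ± 0.25, passing at 10 nM only (1.58-fold, adjusted p = 0.0154; adjusted p = 0.16 at 1 nM).

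**Figure D2:**
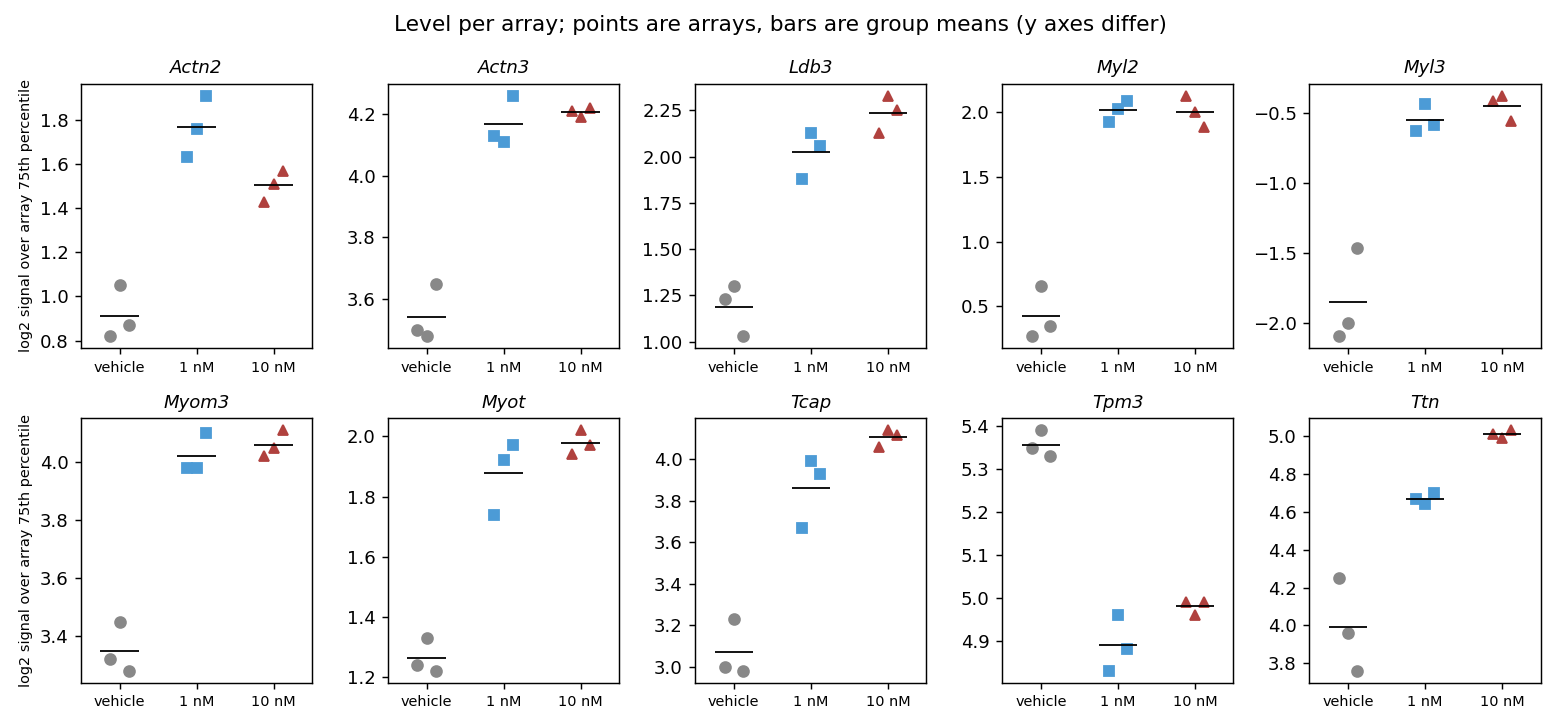
Levels of 10 genes on each array (y axes differ between panels), with vehicle, 1 nM and 10 nM from left to right and bars at group means. In the panels of Ttn and Tcap the 10 nM arrays lie above all 1 nM arrays, in that of Actn2 below them, and Tpm3 is the panel where treated arrays lie below vehicle.

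Tpm3 was the gene called lower, and that call rests on which probe reads it. The gene was represented by its brightest probe, probe 3, whose levels were 5.35, 5.39 and 5.33 with vehicle, 4.83, 4.96 and 4.88 at 1 nM, and 4.99, 4.96 and 4.99 at 10 nM. All treated arrays lay below all vehicle arrays, and the log2 change of the gene was -0.46 at 1 nM (SE 0.06, adjusted p = 0.00106) and -0.38 at 10 nM (SE 0.06, adjusted p = 0.00229). With array median scaling the sign turned (log2 0.03 and 0.15), where the median of all genes was 0.38 and 0.40.

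Tpm3 makes slow-muscle tropomyosin from its first promoter and non-muscle tropomyosins from an internal one, with further forms by splicing. The files list 4 RefSeq transcripts for probe 3 and 1 each for probes 1 and 2. Probe 2 had levels of 0.60, 1.23 and 0.71 with vehicle, 1.72, 1.85 and 1.81 at 1 nM, and 2.12, 2.11 and 2.12 at 10 nM. It thus moved against probe 3, with a log2 change of 0.95 at 1 nM (SE 0.15, adjusted p over probes = 0.0037) and 1.27 at 10 nM (SE 0.15, adjusted p over probes = 0.000597). Probe 1 rose too, by 0.78 (adjusted p over probes = 0.0333, a call lost in 13 of 22 alternatives) and 1.05 (adjusted p over probes = 0.00712).

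Tpm1, the alpha-tropomyosin gene of fast muscle that also makes smooth-muscle and non-muscle forms, also had probes that moved apart. Its brightest probe, probe 2, did not pass (log2 0.28 and 0.27, adjusted p over probes = 0.0612 and 0.0591). Probe 3, which shares 46 bases with it, passed higher at both doses (log2 0.32 and 0.30, adjusted p over probes = 0.0407 and 0.0434), so the 2 differ in call and hardly in size. The call of probe 3 was lost in 15 of 22 alternatives at each dose (adjusted p up to 0.739 and 0.367), and the opposite calls within Tpm1 rest on it. Probe 5 had levels of 3.28, 3.50 and 3.08 with vehicle, 2.27, 2.23 and 2.20 at 1 nM, and 1.89, 1.79 and 1.98 at 10 nM.

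No array of the 3 groups overlapped another group at probe 5, and its log2 change was -1.05 at 1 nM (SE 0.11, adjusted p over probes = 0.000398) and -1.40 at 10 nM (SE 0.11, adjusted p over probes = 6.1e-05). With array median scaling it was -0.56 and -0.87 and no longer passed (adjusted p over probes = 0.327 and 0.135). Probe 1 fell as well, with log2 changes of -1.39 (SE 0.30, adjusted p over probes = 0.014) and -1.76 (SE 0.30, adjusted p over probes = 0.00352), which were -0.67 and -0.87 in the submitters' table (adjusted p over probes = 0.00327 and 0.00055). Probe 1 was dim, with levels of -3.35, -3.11 and -2.11 with vehicle, the highest from replicate 3, and means of -4.25 at 1 nM and -4.62 at 10 nM. Without vehicle replicate 3 its log2 change at 1 nM was -1.02 (adjusted p over probes = 0.00295). Probe 4 fell by 0.48 at 10 nM (adjusted p over probes = 0.0446, a call that ended in 14 of 22 alternatives and turned to log2 0.05 with array median scaling) and had a log2 change of -0.49 at 1 nM (adjusted p over probes = 0.0515). The files list 2 to 4 RefSeq transcripts for each of these 5 probes, and which isoforms each reads was not resolved here.

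The 46 probes together gave 30 higher and 3 lower at 1 nM, against 11.0% and 11.3% of 28342 probes, and 33 higher and 4 lower at 10 nM, against 14.7% and 14.4%. Between the doses 0 of the 46 passed, against 1.42% of probes higher and 1.92% lower, and 8 had an unadjusted p under 0.05 (4 higher, 4 lower). Of the 9 genes with several probes that passed the filter, Tpm1 and Tpm3 were the 2 with probes called in opposite directions, Tpm1 through its fragile probe 3. For Myl1, probe 1, whose 60 bases span 4248 bases of the genome and which is listed for 1 transcript, rose by 0.76 at both doses (adjusted p over probes = 0.000924 and 0.000693). Myl1 probe 2, listed for 2 transcripts and used for the gene, changed by 0.23 and 0.40. The 4 Ttn probes ran from 0.38 to 0.79 at 1 nM and from 0.80 to 1.14 at 10 nM, and the 3 Neb probes from 0.54 to 0.77 and from 0.82 to 0.87.

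**Figure D3:**
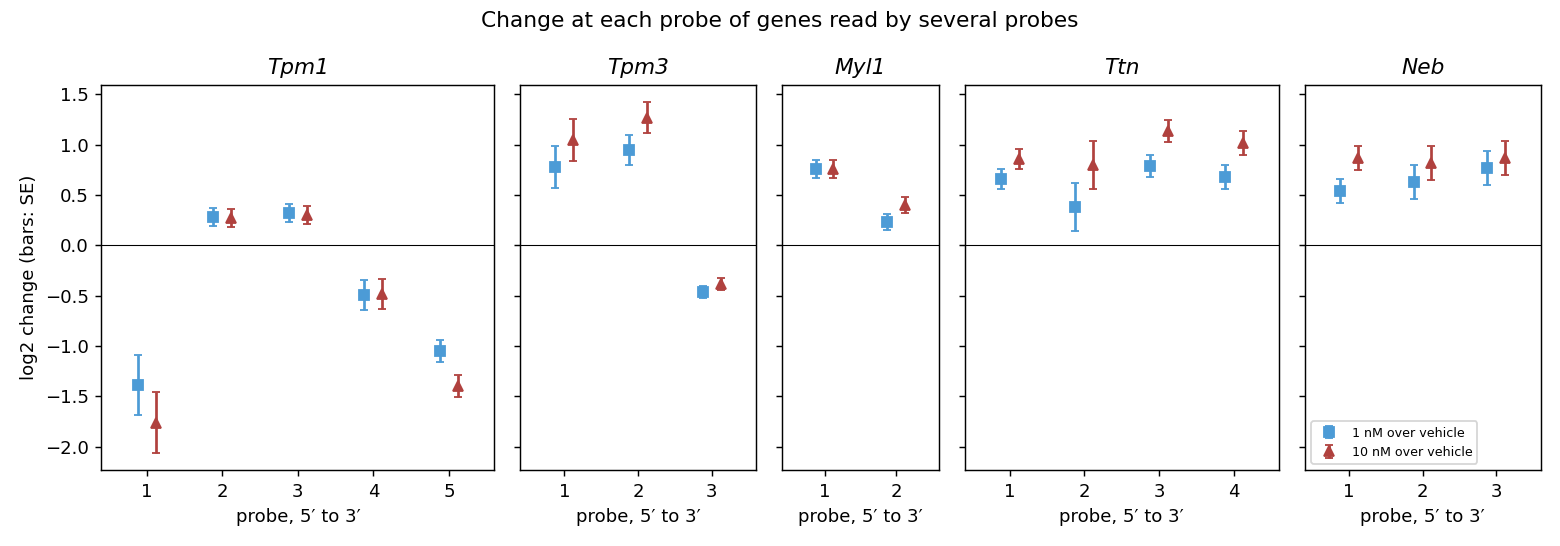
Log2 change over vehicle at each probe of 5 genes, with probes in the direction of transcription (1 nM blue squares, 10 nM red triangles, bars SE). The Tpm1 and Tpm3 panels hold points on both sides of 0, and all Ttn and Neb probes lie above 0.

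Partner genes of 1 family, such as fast and slow forms, were compared within each array, as the change in their log2 difference, over 8 pairs and 3 comparisons. Acta1 with Actc1 sets adult skeletal against cardiac actin, and Actn3 with Actn2 a fast form against that of all striated fibres. The smallest p that 3 arrays against 3 allow is 0.1, and no pair could pass after adjustment over the 24 tests (adjusted p = 0.171 at that p). The difference Mylpf minus Myl2 was -2.39 ± 0.10 at 1 nM and -2.32 ± 0.16 at 10 nM, against -1.01 ± 0.07 with vehicle (SD, n = 3). It changed by -1.38 and -1.31, with no overlap between treated and vehicle arrays (exact two-sided permutation p = 0.1 for each).

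Myl1 minus Myl3 was 7.93 ± 0.10 and 8.01 ± 0.17, against 9.0 ± 0.43, a change of -1.07 and -0.99. With Myl1 probe 1 in place of probe 2, tried after seeing the data, the change was -0.53 and -0.63, again without overlap. Mybpc2 minus Mybpc1 was -3.43 ± 0.08 and -3.05 ± 0.30, against -2.35 ± 0.25, a change of -1.08 and -0.70. In these 3 pairs the slow gene gained on the fast one on every treated array. Tpm1 minus Tpm3, by the probes used for the genes, changed the other way, by 0.74 and 0.64, and that value carries the disagreement between the probes of both genes.

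Myom2 minus Myom3 changed by -0.18 at 1 nM and -0.42 at 10 nM, again without overlap. Myoz1 minus Myoz2 changed by -0.43 at 1 nM without overlap and by -0.26 at 10 nM (2 arrays) with overlap. Actn3 minus Actn2 overlapped vehicle at both doses (-0.23 and 0.08), as did Acta1 minus Actc1 (-0.18 and -0.12). Between the doses 3 of the 8 pairs did not overlap: Actn3 minus Actn2 differed by 0.31, Myoz1 minus Myoz2 by 0.16 (2 arrays at 10 nM) and Myom2 minus Myom3 by -0.24, each 10 nM minus 1 nM. The differences themselves compare separate probes, so their size carries no meaning beyond its change.

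**Figure D4:**
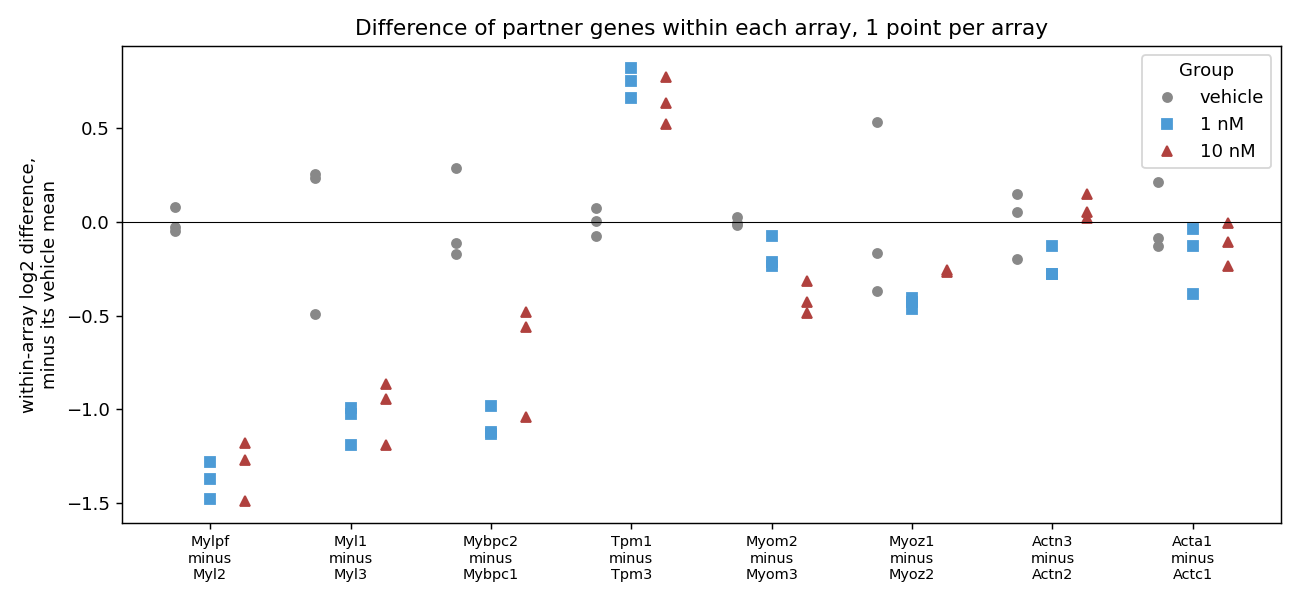
Within-array log2 difference of 8 pairs of partner genes, minus its vehicle mean, with 1 point per array (vehicle grey circles, 1 nM blue squares, 10 nM red triangles). For Mylpf minus Myl2, Myl1 minus Myl3 and Mybpc2 minus Mybpc1 all treated arrays lie below all vehicle arrays.

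Between the doses no member passed, higher or lower, by limma (0 of 30), against 1.60% of all genes higher and 2.21% lower. Unadjusted p under 0.05 was reached by 6 members. Ttn, Neb and Mybpc2 were higher at 10 nM than at 1 nM, by 0.34 (95% interval 0.07 to 0.61), 0.33 (0.04 to 0.62) and 0.42 (0.06 to 0.77). Xirp1, Actn2 and Myom2 were lower at 10 nM than at 1 nM, with log2 differences of -0.35 (-0.59 to -0.11), -0.26 (-0.49 to -0.03) and -0.20 (-0.38 to -0.01). Their adjusted p-values ran from 0.16 for Xirp1 to 0.365 for Myom2.

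For Myl2 and Myl3, the members with the highest changes, the dose differences were -0.01 (-0.29 to 0.26) and 0.10 (-0.28 to 0.48). Over all 30 members the median dose difference was 0.05 (range -0.35 to 0.42), against -0.01 for all genes, while Cyp24a1 differed by 4.84 (adjusted p = 0.000152). The 2 dose groups did not overlap for 9 members, 6 higher at 10 nM and 3 lower, against 12.6% and 11.4% of all genes. Same-numbered samples of the 2 doses deviate together, and those numbered 1 and 2 also share a slide. With the replicate number as a block the count of members passing between the doses stayed at 0. With only those 2 groups in the fit, 1 member passed, Ttn (log2 0.34, adjusted p = 0.0203), and that call was lost when the replicate block was added (adjusted p = 0.0657).

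Calls depended on the scaling, and those near the threshold also on single arrays. Array median scaling ended 14 of 21 calls at 1 nM and 12 of 23 at 10 nM, and left those of Myl2, Myl3, Ldb3, Tcap, Actn2, Actn3 and Mybpc1 at 1 nM. The ended calls at 1 nM were not only those near the threshold. Myom3 went from a limma adjusted p of 0.000402 to 0.0606, and Tpm3 from 0.00106 to 0.966. Vehicle replicate 3, with a median signal of 660 against 216 to 315, had a 75th percentile of 3189, within the range of the other arrays. Its part in the ended calls was not tested. Of the 21 and 23 calls, 17 and 15 held whichever 1 of the 9 arrays was left out. At 1 nM, Tpm2 lost its call on leaving out any of 8 arrays (adjusted p up to 0.123) and kept it without vehicle replicate 2. Actc1 lost its call without 1 nM replicate 2 (0.0729) or 3 (0.0727), Neb without 1 nM replicate 1 (adjusted p = 0.0612) or 2 (0.0657), and Ckm without 1 nM replicate 3 (adjusted p = 0.0661).

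At 10 nM, Des and Myom1 each lost the call on leaving out any of 8 arrays (adjusted p up to 0.138 and 0.099), keeping it without vehicle replicate 2. Ckm lost it for 7 arrays (up to 0.115), all but vehicle replicate 2 and 10 nM replicate 2. Actc1 lost it for 5 (up to 0.112), vehicle replicates 2 and 3 and each of the 10 nM arrays. Myom2 lost it for 4 (up to 0.0918), vehicle replicates 1 and 3 and 10 nM replicates 2 and 3. Tpm2 lost it without vehicle replicate 1 (0.0557) or 10 nM replicate 3 (0.0621), Myoz2 without 10 nM replicate 2 (0.0675) or 3 (0.0607), and Ckmt2 without 10 nM replicate 2 (adjusted p = 0.0507).

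A few calls appeared in the same way. Acta1 passed at both doses without vehicle replicate 2 (adjusted p = 0.0482 and 0.0488), Des at 1 nM without vehicle replicate 2 (adjusted p = 0.00767), and Tpm1 without 1 nM replicate 1 (adjusted p = 0.0358 at 1 nM and 0.0455 at 10 nM) or, at 10 nM, without 10 nM replicate 1 (adjusted p = 0.0464). Myl2, Myl3, Ttn, Tcap, Ldb3, Myot, Myom3, Actn2, Actn3, Mybpc1, Mybph, Lmod2 and Tpm3 kept both calls in every fit that left out 1 array.

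Other sarcomere and Z-disc genes were a second list of 37, with 35 measured (Nebl and Lmod1 did not pass the filter). They were called higher more often than lower. At 1 nM 18 rose and 2 fell, against 11.8% of all genes higher and 11.8% lower. At 10 nM 17 rose and 5 fell, against 15.4% and 14.7%. The list's median log2 changes were 0.36 and 0.40. Ankrd2, a stretch-responsive titin-binding protein, rose 1.14 at 1 nM and 2.11 at 10 nM on the log2 scale (adjusted p = 8.93e-05 and 2.31e-06). Trim63, a ubiquitin ligase of the sarcomere, rose by 1.04 and 1.52 (adjusted p = 0.00053 and 4.92e-05). Palld, which encodes the actin-bundling palladin, fell by 0.89 at 10 nM (adjusted p = 2.59e-05) and had a log2 change of -0.17 at 1 nM (adjusted p = 0.087).

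Between the doses 5 genes of that list passed, 3 higher and 2 lower at 10 nM, against 1.60% and 2.21% of all genes. Of the 30 members 0 passed. Ankrd2, Hspb7 and Mylk2 were higher at 10 nM than at 1 nM (log2 0.97, 0.88 and 0.45), and Palld and Capn3 were lower (log2 -0.72 and -0.48). The difference between the lists in this respect was not tested.

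Non-muscle and smooth-muscle relatives of the same protein families were lower more often than higher. Of 16, all measured, 2 rose and 7 fell at 1 nM, against 11.8% of all genes higher and 11.8% lower. At 10 nM 3 rose and 7 fell, against 15.4% and 14.7%. Their median log2 changes were -0.22 and -0.19. Ckb and Myl12b were called higher at both doses, with log2 changes of 0.74 and 0.78 for Ckb and 0.45 and 0.68 for Myl12b. Vim, the intermediate filament of undifferentiated and mesenchymal cells, fell (log2 -0.69 and -1.2, adjusted p = 0.00011 and 3.77e-06). Tpm4, a non-muscle tropomyosin gene, fell (log2 -1.02 and -1.06, adjusted p = 9.34e-05 and 5.15e-05). Actg2, the enteric smooth-muscle actin, fell (log2 -1.93 and -2.47, adjusted p = 0.00025 and 4.62e-05).

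Markers of other cell states moved with the treatment as well. Beside the counts of called markers, 11.8% of all genes were higher and 11.8% lower at 1 nM, and 15.4% and 14.7% at 10 nM. All 12 cycling-cell markers fell at both doses, with median log2 changes of -4.06 and -4.61. Their summed linear level was 20.6 to 21.8 at 1 nM and 17.1 to 18.7 at 10 nM, against 69.7 to 76.2 with vehicle, in units of the array's 75th percentile. Ccna2, Mki67 and Birc5 had log2 changes of -4.06, -4.48 and -4.27 at 1 nM (adjusted p = 2.22e-07 each). Aurkb, 1 of the 12, was above background on the vehicle arrays only. Their part in the sarcomere result was not tested.

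Of the 10 myoblast and myotube markers, 2 rose and none fell at 1 nM (limma; 5 higher and 1 lower at unadjusted p under 0.05), and 2 rose and 2 fell at 10 nM, with median log2 changes of 0.25 and 0.11 and summed levels of 171 to 195 and 164 to 175, against 158 to 182. The myogenic factor Myod1 rose by 0.66 and 0.89 (adjusted p = 0.00415 and 0.000689). Myog, which drives terminal differentiation, and Mymx, the fusion micropeptide, fell at 10 nM (log2 -0.43 and -0.63, adjusted p = 0.00287 and 0.00261). At 1 nM their log2 changes were -0.13 and -0.31 (adjusted p = 0.226 and 0.0689). Des, which is also 1 of the 30 genes, is among these markers and is 1 of the 2 that rose at 10 nM.

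Of 4 smooth-muscle markers measured (Myh11 did not pass the filter) 3 fell at each dose, with summed levels of 136 to 148 and 107 to 112, against 205 to 220. Cnn1 had log2 changes of -2.79 and -3.56, and Tagln of -1.36 and -1.7. Of 7 fibroblast markers 3 rose and 4 fell at 1 nM and 2 rose and 4 fell at 10 nM, with sums of 119 to 129 and 112 to 126, against 152 to 165. Dcn rose by 1.45 and 1.16, while the log2 changes of Col1a1 were -1.35 and -1.13.

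Of 7 adipocyte markers measured (Cfd did not pass the filter) 1 rose at 1 nM and 2 at 10 nM, Fabp4 among them at both. None was called lower, but 5 and 4 of the 7 had negative changes, with median log2 changes of -0.39 and -0.44. The sums were 1.81 to 1.94 and 4.41 to 4.78, against 0.599 to 1.52. Fabp4 was above background on all 3 arrays of each dose and on 1 of 3 vehicle arrays, so no fold is given. Of 5 heart markers measured (Ryr2 did not pass) 1 rose and 1 fell at each dose. Tnni3, the cardiac troponin I, rose by 1.1 and 1.59 (measured on 2 vehicle arrays). Nppb was called lower, with log2 changes of -0.82 and -0.85 (limma adjusted p = 0.0132 and 0.00849). The median log2 changes of the heart markers were -0.09 and -0.05. Their sums were 0.572 to 0.602 and 0.639 to 0.711, against 0.368 to 0.67. Of 5 macrophage markers none passed at either dose by limma (1, lower, at unadjusted p under 0.05 for each), with sums of 17.8 to 19.2 and 16.1 to 21.3, against 20.8 to 25.2. The part of these markers in the sarcomere result was not tested.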

How the data were processed

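Per the labels, total RNA of 9 samples was labelled with Cy3 and hybridised to 1-colour Agilent arrays, 3 biological replicates a group; per the submitters' processing notes scans were read with Agilent Feature Extraction, version 11.5.1.1, and limma is named. The deposited scanner files hold intensity values on a linear scale, and the other columns are 0 or 1 marks of spot quality, per the file headers. The deposited series table holds log2 values (30094 probes) and served as an alternative only. Its column medians ran from 9.65 to 9.72, it correlated at 0.9999 with normexp-corrected, quantile-normalized values of the same arrays, and its genes were not centred.

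Levels are log2 processed signals scaled to the 75th percentile of their array, without control and non-uniform spots. A probe was kept where 1 or more groups had it well above background on all 3 arrays (28342 of 39429 probes, 71.9%), and a gene is its kept probe with the highest mean. The 75th percentile ran from 2826 to 3389 intensity units, no spot was saturated, and the number of arrays limits the precision. Kept probes were named by accession (21036) or symbol (2168) through a RefSeq gene table (GRCm38.p6, names only), and 5138 kept the files' name. Probe coordinates are mm9, as in the files.

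Groups were compared with limma 3.58.1 (lmFit, eBayes) in R 4.3.3, in 1 fit of all arrays without a block, with Benjamini-Hochberg adjustment over all genes (or probes) and a threshold of 0.05. Partner genes were compared by exact permutation of samples. The procedure was tested on simulated data. Members and lists were chosen with earlier results of these data known. Every member is named. Values per sample are given for the 8 members with the smallest p at each dose and for every member called lower. Of each further list up to 3 called genes are named, with a few more, among them genes called between the doses or against the rest of the list. Array-wise deviations of same-numbered samples correlated at 0.484, 0.329 and 0.144 between 1 nM and 10 nM. These numbers were therefore taken as pairs between the doses, from the data and not the labels. At the 2 doses the replicate 1 arrays share slide 1, the replicate 2 arrays share slide 2, and the replicate 3 arrays lie on slides 2 and 3. A pairing of samples and a shared slide cannot be told apart here. Numbers shared with vehicle were not taken as pairs (0.0528, -0.0209 and -0.00768 at 1 nM, -0.186, -0.193 and -0.42 at 10 nM). Alternatives covered background correction, scaling, filter, probe choice, blocks, slides and each array left out.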

Additional observations from a re-analysis of the deposited data

How the results depend on the processing

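Of 30 genes, 20 were higher and 1 lower at 1 nM, and 22 and 1 at 10 nM. Leaving out single arrays gave 17 to 22 and 15 to 22 higher, 1 to 1 lower at each dose, and 0 to 0 between the doses, with median changes of 0.46 to 0.56, 0.43 to 0.59 and 0.03 to 0.07. Array median scaling gave 7 and 12 higher, against 4.27% and 7.72% of all genes, and 0 and 0 lower, against 2.61% and 3.79%. The members' medians were then 1.00 and 1.01. With this scaling the median of all genes stood at 0.38 and 0.40, against 0.12 and 0.12 with quantile normalization and -0.09 and -0.11 as reported. Under array median scaling Tpm3, by gene and by probe 3 alike, turned to 0.03 and 0.15, and Tpm1 probe 4 at 10 nM to 0.05. The mean of all kept probes turned Tpm3 to 0.42 and 0.65, because its other probes rose. Within slide 1 there were 2 and 6 higher and 0 and 0 lower, and within slide 2 there were 0 lower at 10 nM; fewer samples enter these fits, and a lone array is assumed to vary like the other groups. The replicate block gave 19 and 18 higher, against 10.4% and 14.3% of all genes. Between the doses it gave 0 higher and 0 lower, against 0.9% and 1.19%. The block with only the 2 groups in the fit, added after seeing the data, gave 10 and 8 higher, against 3.23% and 3.66% of all genes. It gave 0 and 0 lower, against 5.29% and 5.54%. Only the 2 groups without a block gave 1 higher between the doses, Ttn, lost with the block (adjusted p = 0.0657). Of the named results, 620 values under alternatives kept direction and call, 99 kept direction and lost the call, and 7 reversed.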
